A study of Homo sapiens with 6 samples.

Results

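The MYC-MAX-MXD network is a family of basic helix-loop-helix leucine zipper transcription factors that compete for one partner and one DNA element. The 10 genes described here, MYC, MYCN, MAX, MXD1, MXD3, MXD4, MXI1, MNT, MGA and MLX, were taken by symbol from a table of 26819 genes, and each symbol was found. They were measured by RNA sequencing in C4-2, a castration-resistant prostate cancer line derived from LNCaP. In every sample the genotype was Tet-O-YAP5SA, a YAP1 under doxycycline control with the serines targeted by the LATS kinases changed to alanine, and grew in RPMI-1640 with fetal bovine serum. The 3 control libraries (Ctrl) came from cells without doxycycline and the 3 Dox libraries from cells given it for 24 hours. The labels state the dose as 0.2 mg/ml, an amount whose unit may be misprinted. They do not say whether the line is 1 clone, whether the libraries came from separate cultures, or whether cells lacking the transgene were also given the drug. The p-values therefore cover the spread between these libraries, and drug and YAP1 effects cannot be told apart.

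As background, MYC and its relative MYCN activate genes as dimers with MAX on the E-box CACGTG. The MXD proteins (MXD1, MXD3, MXD4 and MXI1) and MNT bind MAX too, occupy the same element and recruit SIN3 and histone deacetylases, so they oppose MYC. MGA is a large MAX partner of a Polycomb-type repressor complex, and MLX is a MAX-like hub that pairs with the glucose-responsive factors MondoA (MLXIP) and ChREBP (MLXIPL). YAP1 binds no DNA itself and acts mainly through TEAD factors, whose core element reads GGAATG or, on the other strand, CATTCC.

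Promoter sequences, each 300 bases long with 250 before and 50 after a gene start, were taken from RefSeq (GRCh38.p14). They were searched for 9 of the 10 genes, all but MYC, with 14 starts in all. Both strands were searched for the E-box, a palindrome, and for the TEAD core, and the motifs do not overlap each other. The E-box was in 3 of the 14 promoters (MXD4, MNT and MLX) and in 7.26% of 35116 promoters. The TEAD core was in 3 of the 14 (the first listed starts of MXI1 and MGA, and MLX) and in 14.0% of all promoters. A match is only a description of these letters. The promoter of MLX is printed whole because it held both elements, and that of MXI1 because its level changed most among the antagonists; MXD4 and MNT are shown around their E-boxes. Capitals mark the 2 motifs.
MLX, chr17:42566850-42567149, plus strand: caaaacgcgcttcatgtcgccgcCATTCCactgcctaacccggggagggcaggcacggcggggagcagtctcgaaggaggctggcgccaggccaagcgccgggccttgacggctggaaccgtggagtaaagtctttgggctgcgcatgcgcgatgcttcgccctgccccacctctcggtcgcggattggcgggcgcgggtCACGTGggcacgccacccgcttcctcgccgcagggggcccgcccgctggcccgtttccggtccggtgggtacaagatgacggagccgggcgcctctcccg
MXI1, chr10:110207355-110207654, plus strand: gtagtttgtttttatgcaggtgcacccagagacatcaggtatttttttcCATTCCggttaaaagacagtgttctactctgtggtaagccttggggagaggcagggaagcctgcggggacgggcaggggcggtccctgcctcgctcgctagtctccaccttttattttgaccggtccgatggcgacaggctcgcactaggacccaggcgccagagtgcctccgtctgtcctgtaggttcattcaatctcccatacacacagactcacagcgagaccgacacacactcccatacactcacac
MXD4, chr4:2262302-2262359, minus strand: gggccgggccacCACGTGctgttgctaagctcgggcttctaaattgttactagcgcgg
MNT, chr17:2401208-2401293, minus strand: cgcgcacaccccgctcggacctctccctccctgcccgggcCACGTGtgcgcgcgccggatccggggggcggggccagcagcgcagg
The E-box of MLX lies 50 bases before the start, close to it, while those of MNT and MXD4 lie 193 and 238 bases before it. MXI1 has 3 listed starts, and the deposited values, 1 per gene, do not show which was used.

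Levels are the authors' TPM, that is reads per unit of gene length, rescaled by the authors to 1 total for all libraries. Whole reads recovered from them came to between 24960514 and 29261625 per library. YAP1 was 4.74-fold higher in Dox, and its target CYR61 (CCN1) 221-fold. All 8 luminal prostate markers checked were expressed in both groups, and their summed level went from 6044 to 6116 TPM in Ctrl to 4479 to 4513 TPM in Dox. Summed markers of basal, neuroendocrine, stromal, endothelial and immune cells stayed at or below 1.67 TPM in every library, with KRT5, TP63 and CHGA near 0. The endothelial sum was at most 0.0197 TPM in Ctrl and 0.381 to 0.644 TPM in Dox. In Dox it was mostly CDH5 (0.381, 0.567 and 0.458 TPM), with KDR at 0, 0.0772 and 0.0182 TPM. The part of this sum in the results was not tested. In bulk RNA, fewer cells with a transcript and less of it per cell cannot be told apart.

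Of the 10 genes, 9 reached 1 TPM in 3 or more libraries; these were tested two-sided with limma on log2(TPM + 1), the p-values being adjusted over 14833 genes by Benjamini-Hochberg. MYC, MLX and MGA rose, MXI1 and MXD3 fell, and MAX, MXD1, MXD4 and MNT did not pass the adjusted threshold of 0.05. Libraries of the groups did not overlap for 7 of the 9, against 61.9% of tested genes. The 5 called members stand beside 53.7% of all tested genes called (35.9% higher and 17.8% lower), so on the deposited scale the number of calls is near the background. The median log2 fold change was -0.12 over the 9 members and 0.10 over all tested genes. That last value depends on scaling. Of the called genes, 66.8% were higher on the deposited scale, 49.4% after median-ratio rescaling (median of all genes -0.0047) and 45.1% after quantile normalization (median -0.033).

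MYC, the activating subunit, was at 81.3, 88.2 and 80.6 TPM in the 3 Ctrl libraries, from 2051 to 2227 reads. In Dox it was at 177, 180 and 193 TPM, from 3974 to 5096 reads. Every Dox library lay above every Ctrl library, and the gap was many times the spread within either group. The mean rose 2.20-fold, with a log2 fold change of 1.13 ± 0.05 (SE; 95% interval 1.01 to 1.24; limma adjusted p = 1.5e-06). MYCN, the paralog known from neuroblastoma and neuroendocrine prostate cancer, was represented by 0, 2 and 0 reads in Ctrl and by 1, 0 and 1 in Dox. Both groups lie under a floor of 3 reads, which corresponds to 0.129 to 0.154 TPM for this gene, so no fold is given.

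MAX, the shared partner, was listed at 13.3, 12.9 and 12.6 TPM in Ctrl and 13.1, 12.7 and 11.6 TPM in Dox. The groups overlapped, and its log2 fold change of -0.05 ± 0.06 had a 95% interval from -0.20 to 0.09 (limma adjusted p = 0.51). With MYC higher and MAX at this level, there were 6.44 ± 0.367 units of MYC TPM per unit of MAX TPM in Ctrl and 14.8 ± 1.69 in Dox (SD, n = 3). The MAX value is uncertain by scaling, since it passes as lower after quantile normalization (log2 fold change -0.22, adjusted p = 0.018) and with the trend with gene length removed (-0.17, adjusted p = 0.041).

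**Figure D1:**
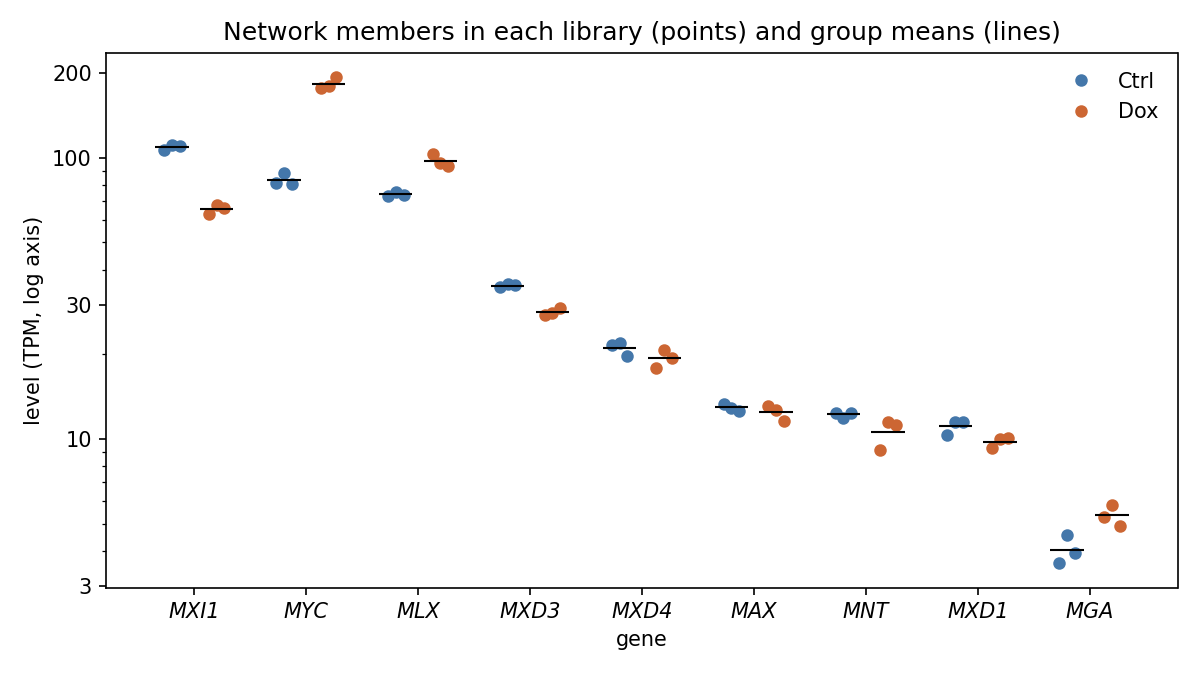
Level of each network member in TPM on a log axis, with 1 point per library, Ctrl in blue and Dox in orange, and black lines for group means. MYC and MLX sit higher in all 3 Dox libraries and MXI1 and MXD3 lower, while the MAX points of the groups overlap; MYCN is left out because none of its libraries holds more than 2 reads.

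Among the antagonists, MXI1 changed most. It was the highest of all members in Ctrl, at 106, 111 and 110 TPM, and went to 63.4, 67.8 and 66.3 TPM in Dox. The lowest Ctrl library was well above the highest Dox library, on at least 2185 reads in each. On the log2 scale it fell by 0.72 ± 0.04 (SE; 95% interval -0.81 to -0.63; limma adjusted p = 3.9e-06), a 1.66-fold lower mean.

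MXD3, an MXD protein known from proliferating cells, also fell. Its Ctrl libraries held 34.7, 35.5 and 35.2 TPM and its Dox libraries 27.7, 28.1 and 29.3 TPM, with no overlap. On the log2 scale it fell by 0.30 ± 0.04 (SE; limma adjusted p = 6e-04). In GENCODE 29, 22.5% of the MXD3 exon length is shared with PRELID1 on the opposite strand and 926 bases with RAB24 on the same strand. PRELID1 stood at 518 ± 7.04 TPM in Ctrl and 423 ± 3.08 TPM in Dox (SD, n = 3), and RAB24 at 60.9 ± 0.344 and 52.6 ± 2.04 TPM. Whether reads were counted by strand is not stated in the labels, and counting by strand would not separate those of RAB24. The part of these neighbours in the MXD3 value was not tested.

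The other antagonists lay lower in Dox by amounts that did not pass the test. MXD1, linked to differentiation, was at 10.4, 11.5 and 11.4 TPM in Ctrl and 9.28, 9.99 and 10.1 TPM in Dox. Its groups did not overlap, though the lowest Ctrl library is close to the highest Dox library (log2 fold change -0.16 ± 0.07, limma adjusted p = 0.066). MNT, the most broadly expressed antagonist, was at 12.4, 11.9 and 12.4 TPM against 9.14, 11.5 and 11.2 TPM. Dox replicate 1 is the low one here, and without it the MNT log2 fold change goes from -0.20 to -0.10 (adjusted p = 0.22). MXD4 was at 21.6, 22.0 and 19.8 TPM in Ctrl and 17.8, 20.8 and 19.4 TPM in Dox, with overlapping groups (log2 fold change -0.12 ± 0.07, limma adjusted p = 0.18).

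Whether these 3 pass depends on how libraries are scaled. MXD1, MXD4 and MNT all pass as lower after median-ratio rescaling (adjusted p = 0.0054, 0.022 and 0.022), after quantile normalization (0.0014, 0.0089 and 0.011), with the length trend removed (0.0021, 0.0041 and 0.0075) and in limma voom on the recovered reads (0.0077, 0.019 and 0.0038). MXD1 also passes without Ctrl replicate 1 (adjusted p = 0.042). All 5 antagonists thus had a negative log2 fold change in every alternative run, and the number called ranged from 2 to 5.

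Of the remaining members, MLX went from 73.3, 75.5 and 74.0 TPM in Ctrl to 103, 95.5 and 93.9 TPM in Dox. No Dox library reached down to the Ctrl range (log2 fold change 0.39 ± 0.04, SE; limma adjusted p = 2e-04). In GENCODE 29, 18.1% of its exon length is shared with PSMC3IP on the opposite strand, which stood at 29.2 ± 0.934 and 24.5 ± 2.24 TPM. MGA was the lowest of the tested members, at 3.61, 4.57 and 3.91 TPM in Ctrl and 5.29, 5.82 and 4.92 TPM in Dox. It rose by 0.34 ± 0.10 on the log2 scale (SE; limma adjusted p = 0.022). That call ends with no filter on low values (adjusted p = 0.061), after quantile normalization (0.13), with the length trend removed (0.40), and without Ctrl replicate 1 (0.070) or 3 (0.065) or Dox replicate 1 (0.054) or 2 (0.078).

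**Figure D2:**
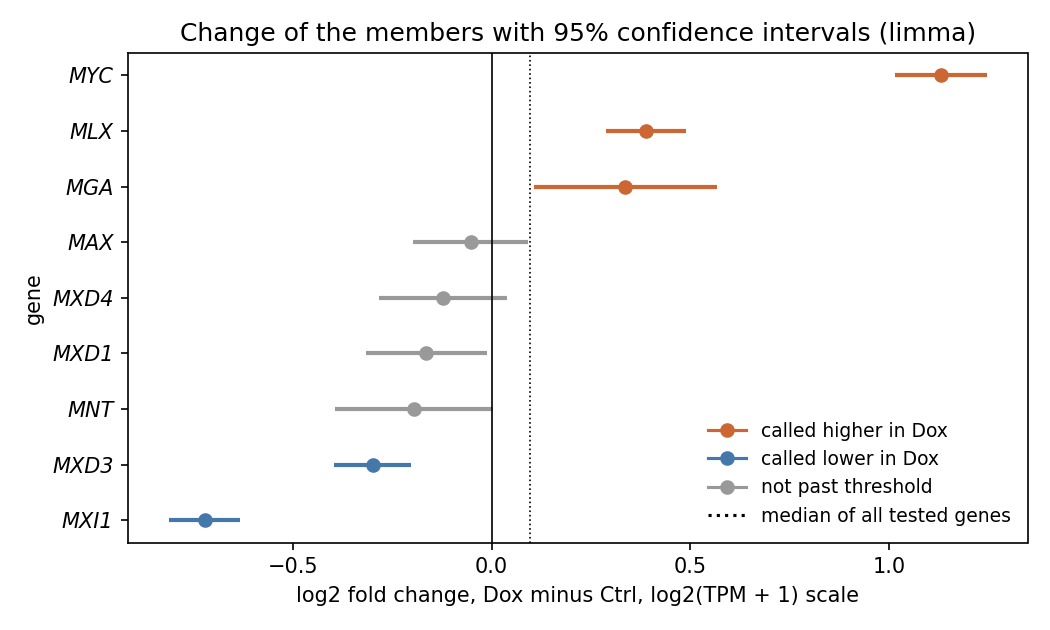
Change of the 9 tested members as log2 fold change, Dox minus Ctrl, on the log2(TPM + 1) scale, with 95% limma confidence intervals; orange and blue are called higher and lower, grey did not pass. MYC stands alone at 1.13 and MXI1 at -0.72, and the dotted line is the median of all tested genes at 0.10.

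The order of the levels changed at the top. In Ctrl it ran MXI1, MYC, MLX, MXD3, MXD4, MAX, MNT, MXD1, MGA and MYCN, with no overlap of library ranges between neighbours. In Dox it ran MYC, MLX, MXI1 and then as before, and MNT and MXD1 were the only neighbours whose ranges overlapped. TPM is per unit of gene length, so levels can be set side by side. The length counts all annotated exons, though, and a gene using few of them is understated.

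On the TPM scale, MYC and the sum of its 5 antagonists exchanged places. The summed TPM of MXD1, MXD3, MXD4, MXI1 and MNT was 185, 192 and 189 in Ctrl, above MYC in each library, and 127, 138 and 136 in Dox, below MYC in each library. Per unit of summed antagonist TPM there were 0.442 ± 0.0176 units of MYC in Ctrl and 1.37 ± 0.0603 in Dox (SD, n = 3), 3.11-fold more. MYC took up 22.9 ± 0.666% of the summed TPM of the 10 genes in Ctrl and 42.4 ± 1.34% in Dox. The groups do not overlap, and an exact two-sided permutation test gave p = 0.1, the smallest that 3 against 3 libraries can give. Of the antagonist sum, MXI1 was 57.8 ± 0.492% in Ctrl and 49.2 ± 0.567% in Dox. Which of the 2 is higher rests on the gene lengths, 2995 bases for MYC and 4607 (MXI1) to 8728 (MNT) for the antagonists. Annotated exons that are not used would understate a level, and the sum holds MXD3, which shares exons with PRELID1 and RAB24. The part of either was not tested. These are transcript levels, and protein was not measured.

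**Figure D3:**
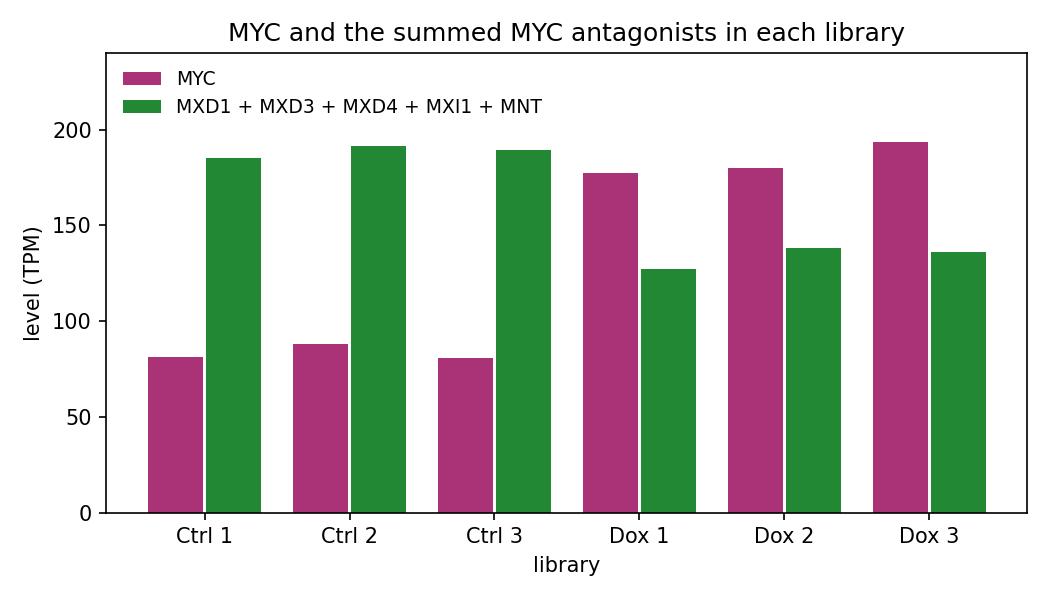
Level in TPM (linear axis from 0) of MYC and of the summed antagonists MXD1, MXD3, MXD4, MXI1 and MNT, as 2 bars for each of the 6 libraries. The antagonist sum is the taller bar in every Ctrl library, at 185 to 192 TPM, and MYC is the taller bar in every Dox library, at 177 to 193 TPM. Bar heights of different genes depend on the annotated exon lengths.

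Likeness to MYC over the 6 libraries was measured by the Euclidean distance between profiles of log2(TPM + 1) centred on their means. The nearest 5 tested genes were ADAMTSL4 (distance 0.0795), FRMD3 (0.102), LMNA, which encodes the nuclear lamins A and C (0.105), WFS1, an endoplasmic reticulum membrane protein (0.1095), and the kinase MAP3K14 (0.1102). The scale understates changes of low genes. ADAMTSL4 rose 2.66-fold (2.18 to 5.80 TPM) and FRMD3 3.60-fold (0.93 to 3.34 TPM), beside 2.20-fold for MYC. LMNA, WFS1 and MAP3K14 rose 2.10-fold, 2.31-fold and 2.23-fold. For MXI1, the member with the largest fall, the nearest 5 included C20orf27 (0.0780), the transcription factor SNAI1 (0.0790), the alanine transaminase GPT2 (0.0795) and the ubiquitin protease USP3 (0.0805). Any gene with a like difference between the groups scores well here, so this is a description with no test.

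Relatives of the network were mixed, with 4 of 9 tested higher (44.4%, against 35.9% of all genes) and 2 lower (22.2%, against 17.8%). MYCL, the third MYC paralog, rose from 7.21 ± 0.548 to 10.7 ± 0.374 TPM (SD, n = 3). TFE3, USF1 and ZBTB17 rose 1.27-fold, 1.17-fold and 1.23-fold; ZBTB17 encodes MIZ1, through which MYC represses genes, and its call is lost after median-ratio rescaling (adjusted p = 0.10), quantile normalization (0.41) and length correction (0.11), and without Ctrl replicate 1 (0.056) or 3 (0.062) or Dox replicate 2 (0.078) or 3 (0.067). The lysosomal regulator TFEB fell from 10.6 ± 0.447 to 7.22 ± 0.689 TPM. MLXIP, the MondoA partner of MLX, fell from 9.34 ± 0.450 to 7.45 ± 0.459 TPM, opposite to MLX itself, and MLXIPL was too low to test (0.553 ± 0.0562 and 0.624 ± 0.156 TPM).

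MYC coactivators were called in 13 of 15 cases, 10 higher (66.7%) and 3 lower (20%), beside 35.9% and 17.8% of all genes. Median-ratio rescaling turns the split into 5 and 5 (33.3% each), beside 26.4% higher and 27.0% lower over all genes. SKP2, a ubiquitin ligase subunit that both coactivates and degrades MYC, rose from 43.5 ± 5.21 to 88.0 ± 8.26 TPM, 2.02-fold higher. The chromatin remodellers EP400 and BPTF rose 1.74-fold and 1.56-fold, and the acetyltransferase scaffold TRRAP 1.35-fold. The acetyltransferase KAT2A was lower at a ratio of 0.745, and the helicases RUVBL1 and RUVBL2 were lower at ratios of 0.798 and 0.770. Of 17 genes of MYC protein turnover, 7 rose (41.2%, beside 35.9% of all genes) and 1 fell (5.88%, beside 17.8%). The 47.1% called compare with 53.7% of all genes. Median-ratio rescaling gives 6 and 7 (35.3% and 41.2%, beside 26.4% and 27.0% of all genes). The ligase HUWE1 rose from 49.1 ± 3.30 to 80.9 ± 3.58 TPM, BTRC 1.45-fold and the phosphatase subunit PPP2R5A 1.38-fold, while the ligase STUB1 fell from 191 ± 4.30 to 149 ± 7.11 TPM. FBXW7, the best known MYC ligase and named here after its value was seen, was at 3.85 ± 0.196 and 4.32 ± 0.238 TPM and did not pass (limma adjusted p = 0.19).

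The corepressors used by MXD proteins and MNT went both ways: 3 of 13 rose and 4 fell, and the 53.8% called are at the background of 53.7%. Under median-ratio rescaling the counts are 3 and 6 (23.1% and 46.2%, beside 26.4% and 27.0% of all genes). With the length trend removed they are 2 and 8 (15.4% and 61.5%, beside 24.3% and 28.9% of all genes), so the likeness to the background depends on scaling. SIN3A fell from 30.4 ± 0.666 to 26.6 ± 1.58 TPM, and the paralog SIN3B rose from 13.5 ± 0.347 to 18.0 ± 0.726 TPM. The SIN3A call is lost at the threshold without Dox replicate 1 (limma adjusted p = 0.050), where 3 corepressors are called lower. SAP30, a SIN3 complex subunit, fell most (50.7 ± 1.79 to 28.5 ± 0.499 TPM). The subunits ING1 and SAP18 fell by 0.33 and 0.24 (log2). SUDS3, another SIN3 subunit, rose 1.51-fold and NCOR1 1.35-fold; NCOR1 does not pass with the length trend removed (adjusted p = 0.069). In the complex that holds MGA, 2 of 12 members rose and 3 fell, that is 41.7% called beside 53.7% of all genes. Median-ratio rescaling gives 1 and 6 (8.33% and 50%, beside 26.4% and 27.0%). On the log2 scale RYBP, RNF2 and CBX3 fell by 0.60, 0.35 and 0.20, while the ubiquitin ligase RING1 rose from 43.5 ± 1.87 to 59.2 ± 2.05 TPM. WDR5, shared with the coactivators, rose 1.14-fold, a call that ends after median-ratio rescaling (adjusted p = 0.13), quantile normalization (0.20) and length correction (0.11).

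Genes that MYC is known to activate went both ways. Of 64 tested, 15 rose (23.4%, against 35.9% of all genes), 22 fell (34.4%, against 17.8%) and 27 did not pass. After median-ratio rescaling, 11 rose (17.2%, beside 26.4% of all genes) and 32 fell (50%, beside 27.0%). The list median was -0.06 on the log2 scale, against 0.10 for all tested genes. Without Ctrl replicate 2 it was -0.0045, with 20 higher and 21 lower, against 0.11 for all genes. ODC1, the polyamine synthesis enzyme and a textbook MYC target, rose 2.09-fold from 1970 ± 50.2 to 4123 ± 110 TPM. PPRC1, a coactivator of mitochondrial biogenesis, rose 2.14-fold, the transferrin receptor TFRC from 53.6 ± 8.52 to 94.7 ± 4.69 TPM, and TMEM97 1.40-fold. POLR3G, a subunit of RNA polymerase III, fell from 10.7 ± 0.270 to 4.86 ± 0.252 TPM and the sorbitol dehydrogenase SORD from 203 ± 0.952 to 107 ± 2.64 TPM. The mitochondrial chaperonin HSPE1 and the hexokinase HK2 each fell to about 0.65 of their Ctrl level (ratios 0.651 and 0.652). Members that act in the nucleolus or in ribosome assembly, named after their values were seen, went both ways. NPM1 fell from 1055 ± 17.2 to 757 ± 20.8 TPM and FBL from 527 ± 7.31 to 383 ± 11.6 TPM. BYSL and NOP2 rose 1.40-fold and 1.37-fold. NCL, at 254 ± 16.7 and 243 ± 1.44 TPM, did not pass (limma adjusted p = 0.31).

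Genes that MYC is known to repress were called in 12 of 14 cases, 5 of them higher (35.7%, beside 35.9% of all genes) and 7 lower (50%, beside 17.8%). Median-ratio rescaling gives 4 and 8, beside 26.4% and 27.0% of all genes. The CDK inhibitor genes CDKN2B and CDKN1C moved apart. CDKN2B rose from 2.51 ± 0.265 to 9.25 ± 0.207 TPM (log2 fold change 1.55 ± 0.08), and CDKN1C fell from 35.5 ± 3.54 to 11.1 ± 1.75 TPM (-1.60 ± 0.11). GADD45B, NDRG1 and BTG1 rose 1.75-fold, 1.47-fold and 1.40-fold, and KLF6 and CDKN1A were lower at ratios of 0.497 and 0.551.

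Of the known targets of MLX with MondoA or ChREBP, 10 were tested, and most were lower in Dox while MLX was higher. None of the 10 was called higher and 8 were called lower (80%), against 17.8% of all genes lower, with a median log2 fold change of -0.47. After median-ratio rescaling the counts were 0 and 9 (90% lower, beside 27.0% of all genes). In limma voom and without Dox replicate 1, 1 member passes as higher. TXNIP, the glucose-responsive inhibitor of thioredoxin, which is also on the list of MYC-repressed genes, fell from 12.4 ± 0.586 to 5.14 ± 0.895 TPM. The lipid synthesis genes ELOVL6 (ratio 0.398) and FASN (2367 ± 75.5 to 1203 ± 148 TPM) fell too, as did KLF10, from 57.1 ± 1.52 to 36.5 ± 0.258 TPM. ARRDC4, the other classical MondoA target, was named after its value was seen. It was the only tested gene of this list with a positive log2 fold change (0.25 ± 0.10, SE). Its levels were 3.70 ± 0.193 and 4.61 ± 0.609 TPM without overlap of the groups, and it did not pass (limma adjusted p = 0.067). FASN and ELOVL6 are also targets of SREBP and other regulators, and the part of MLX in these values was not tested.

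**Figure D4:**
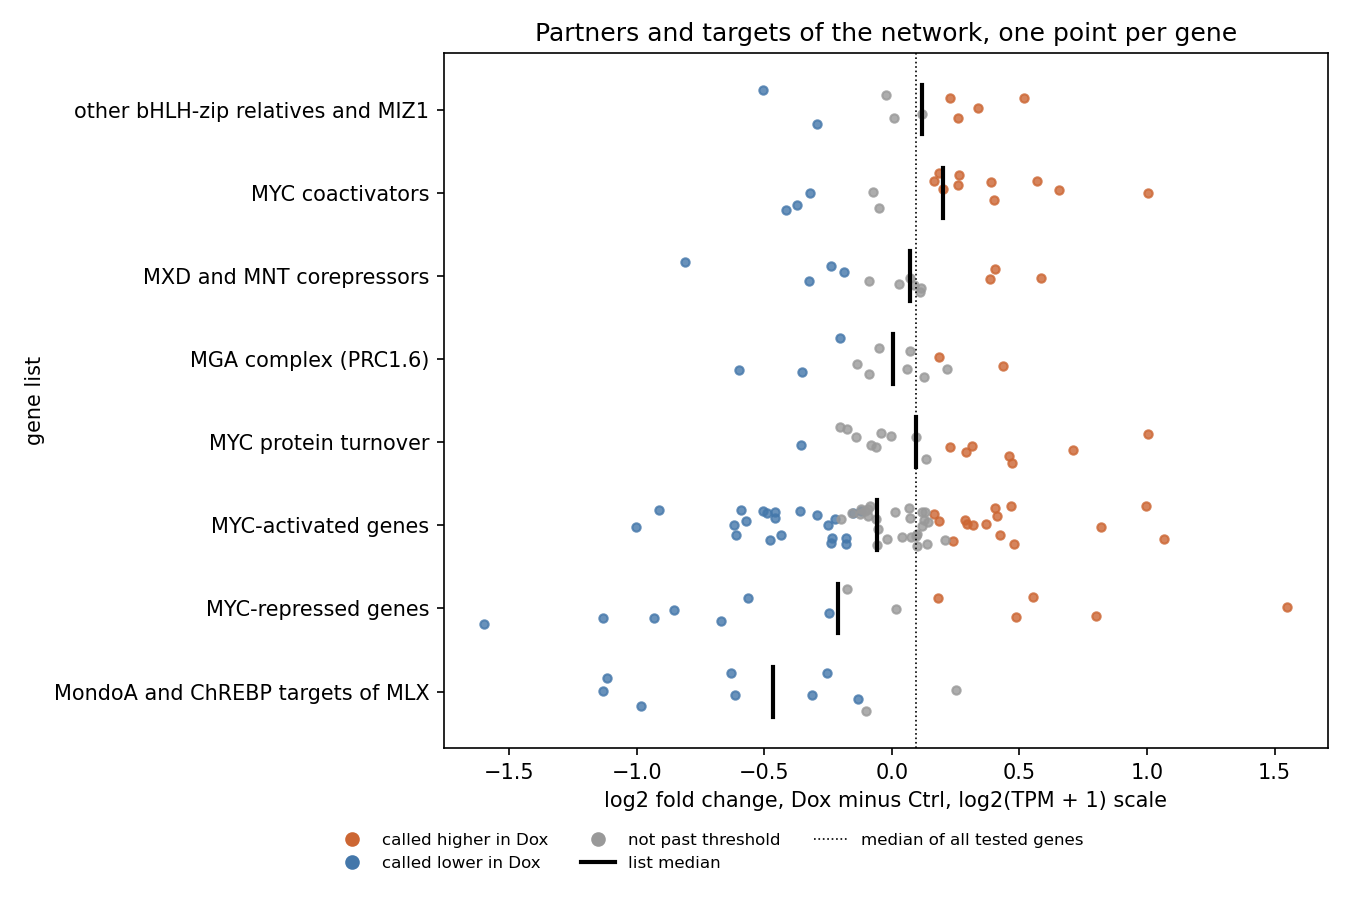
Log2 fold change, Dox minus Ctrl, of every tested gene in 8 lists of partners and targets, 1 point per gene, orange and blue for genes called higher and lower and grey for those that did not pass; black bars are list medians and the dotted line the median of all tested genes. The MLX targets lie to the left with a median of -0.47, and the MYC-activated genes spread on both sides of a median of -0.06.

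Of the non-coding neighbours, PVT1, which lies next to MYC, was at 9.23 ± 0.331 TPM in Ctrl and 10.0 ± 0.727 TPM in Dox and did not pass (log2 fold change 0.11 ± 0.07, limma adjusted p = 0.22). PCAT1 was the 1 called gene of the 2 tested, with a log2 fold change of -1.81 ± 0.19; it is annotated as antisense, and without strand its reads cannot be told from those of a partner.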

How the data were processed

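Stranded mRNA libraries (TruSeq) of 6 samples were compared, grouped by their titles. Per the submitters' processing notes, FastQC 0.11.2, STAR 2.5.3a, featureCounts and edgeR were used with hg19; these notes state no annotation release or strand setting. The authors deposited TPM per gene and library, each library summing to the same total. Whole reads were recovered by finding 1 constant per library from GENCODE 29 exon lengths. That length gave whole reads, within 0.01, for 9115 of the 14833 genes tested, and a searched length, the smallest that fitted, for the other 5718 (MYC, MXD1 and MGA among them). If all 6 read counts share a divisor, recovered reads are too low. Read floors cover counting error only. Chi-square per gene between libraries of a group was 2.38 to 4.49, above counting error, so no library was treated as a copy of another; this does not show separate cultures.

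Genes reaching 1 TPM in 3 or more libraries were fitted with limma 3.58.1 (R 4.3.3, eBayes with trend) on log2(TPM + 1), after testing on simulated data; on this scale changes of low genes are understated. Fold values are ratios of mean TPM. Members and lists were chosen with earlier results of these data known. List genes are named by rule, up to 4 per direction, taking the largest changes among called members without overlap of the groups. Alternatives were each library left out, a replicate block, no trend, median-ratio and quantile scaling, a pseudocount of 0.1, no filter and a stricter one (mean TPM of 5 or more); removal of the length trend (loess, span 0.3) and limma voom on recovered reads were chosen after seeing the data. Promoter positions are those of GRCh38, while the files use hg19, so no other gene positions are given. A gene that meets the rule for likeness to MXI1 is not reported here.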

Additional observations from a re-analysis of the deposited data

How the results depend on the processing

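The directions of all 9 tested members were the same in every alternative that gave a value (15 each, 14 for MGA, which lies under the stricter filter), and MYC, MXI1, MXD3 and MLX passed the threshold in all of them. The log2 fold change ranged from 1.02 to 1.17 for MYC and from -0.84 to -0.69 for MXI1. The 5 called members became 8 of 9 after median-ratio rescaling, quantile normalization, removal of the length trend and in voom. Over all 14833 tested genes, 7925, 7885, 7897 and 8511 were called in that order. The members called there were thus above the share over all genes. The 2 members called lower became 5, 6, 6 and 5 in the same order. Over all genes, the 2640 called lower became 4010, 4325, 4287 and 3303, again in that order. Leaving out each library gave 4 to 5 called members and 6752 to 7589 called genes in place of 7959. The rise of the MYC share of summed network TPM, 19.5 percentage points, ranged from 18.7 to 19.9 without each library and was 27.2 as a share of MYC plus its antagonists. Samples share only a replicate number. Deviations of same-numbered libraries correlated at -0.0085, 0.063 and 0.0035, and not every library correlated best with its own number. With the replicate block, 7841 genes and 5 members were called, and the MYC share rose by 19.5 points (exact paired permutation p = 0.25, the smallest that 3 pairs can give). Depth limits MYCN, with at most 2 reads in a library.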
